A study of Mus musculus with 12 samples.

Results

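The genes of the mitochondrial respiratory chain were followed through 4 groups of gonadal white adipose tissue (GWAT). They were taken from the table of all genes by symbol, as mt-Nd, mt-Co, mt-Cytb, mt-Atp, Nduf, Sdh, Uqcr, Cox4 to Cox8 and Atp5 genes, with a mean of at least 0.5 CPM (counts relative to the library total) over the 12 libraries. Of 55281 genes in the table, 132 matched these symbols and 114 reached the level. Among the 114 were 99 subunit genes, of which 13 lie in the mitochondrial genome and 86 in the nucleus, 13 assembly factors and 2 further loci, the pseudogene Atp5pb-ps and Ndufb4c. Atp5pb-ps, at 0.789 CPM, and Cox6a2, at 0.899, were the last inside the threshold, and the pseudogenes Cox5b-ps, at 0.422, and Ndufa12-ps, at 0.338, the first outside it. A filter on low counts left 111 of the 114 for testing, and the subunits Cox8c, Cox7b2 and Ndufb11b did not pass it. The 96 tested subunits are the 13 mitochondrial and 83 nuclear ones.

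The groups were WT mice, Hoip fl/fl without AdipoQ.Cre, and HoipA-KO mice, Hoip fl/fl with AdipoQ.Cre, each on control diet (CD, 14% fat) or high-fat diet (HFD, 60% fat). All were males of 22 to 24 weeks that had received the diet for 16 weeks from 6 weeks of age, and each group had 3 libraries, each from the pooled RNA of 3 mice. WT and HoipA-KO mice alike carried the floxed alleles of Hoip, the gene of the catalytic subunit of the linear ubiquitin ligase LUBAC, and the Cre transgene is driven by the adiponectin promoter of mature adipocytes. The other cells of the HoipA-KO tissue therefore keep HOIP. In whole tissue a lower level can reflect fewer cells of a type or less RNA per cell, and bulk libraries cannot tell these apart.

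The respiratory chain passes electrons from NADH (complex I) and succinate (complex II) through coenzyme Q to complex III and then to complex IV, which reduces oxygen, and complex V makes ATP from the proton gradient. The mitochondrial genome encodes core membrane subunits of complexes I, III, IV and V, which are transcribed as long polycistronic RNAs inside the organelle, while complex II and all other subunits come from nuclear genes. White adipocytes hold few mitochondria compared with brown adipocytes, and some complex IV subunits have a second isoform used mainly in heart, skeletal muscle and brown fat.

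Library totals ranged from 30513500 to 60540260 estimated counts, so that 3 counts, taken as the floor of detection, were worth 0.0496 to 0.0983 CPM. WT CD replicate 3 stood apart. Its summed CPM of 6 male germ cell markers was 8063 (16.4 to 322 in the other WT CD libraries, at most 2.67 elsewhere). It was left out of the fits, as the study did, and values with it are given as those over all libraries. WT CD replicate 2 held 14629 CPM of 8 epididymal markers, against 0.854 in replicate 1, and 0.134 to 1278 were found in the other groups. On CD, 6 of the 6 germ cell and 2 of the 8 epididymal markers were lower in HoipA-KO, and none of either on HFD. Of all genes tested, 18.8% were lower on CD and 7.62% on HFD. Rnf31, which encodes HOIP, was at 20.2 and 20.6 CPM in the WT CD libraries, 17.8 to 19.7 in WT on HFD, 17.9 to 21.6 in HoipA-KO on CD and 19.0 to 22.4 in HoipA-KO on HFD. Counts of the whole transcript in whole tissue do not check a deletion in adipocytes.

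Mitochondrial subunit transcripts took a smaller share of the libraries in all HoipA-KO samples than in all WT samples, on either diet, while their nuclear shares overlapped, with WT CD replicates 1 and 2 above all HoipA-KO libraries. The 13 mitochondrial genes held 8.57% and 8.92% of all counts in WT CD, 5.84%, 5.69% and 4.17% in WT on HFD, 2.74%, 1.94% and 2.44% in HoipA-KO on CD, and 2.83%, 2.16% and 2.20% in HoipA-KO on HFD. WT CD replicate 3 had 3.69%, the lowest WT value and still above the highest HoipA-KO library. The 86 nuclear genes held 1.48% and 1.40% in WT CD (0.913% in replicate 3), a mean of 1.03% ± 0.0908 (SD, n = 3) in WT on HFD, 0.933% ± 0.150 in HoipA-KO on CD and 0.951% ± 0.122 in HoipA-KO on HFD. Thus the nuclear share in the HoipA-KO groups lay under these 2 libraries but overlapped with WT CD replicate 3 and with WT HFD.

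Accordingly, the mitochondrial share divided by the nuclear share was 5.81 and 6.39 in WT CD (4.04 in replicate 3), 5.79, 5.03 and 4.37 in WT on HFD, 2.99, 2.45 and 2.24 in HoipA-KO on CD, and 2.86, 2.65 and 2.09 in HoipA-KO on HFD. No HoipA-KO library reached any of the 6 WT libraries. With the nuclear copies described below added to the mitochondrial genes, the ratio was 5.61 to 8.69 in WT and 3.18 to 4.17 in HoipA-KO libraries, again without overlap. Per kilobase of transcript, the median level of the mitochondrial genes was 4589 CPM per kb in WT CD and that of the nuclear genes 79.1. These medians were 3651 and 52.2 in WT on HFD, 1402 and 52.4 in HoipA-KO on CD, and 1292 and 49.3 in HoipA-KO on HFD. In each of the 4 groups mt-Co1 was the highest and mt-Nd6 the lowest of the mitochondrial genes per kb, and Cox8a the highest of the nuclear genes.

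**Figure D1:**
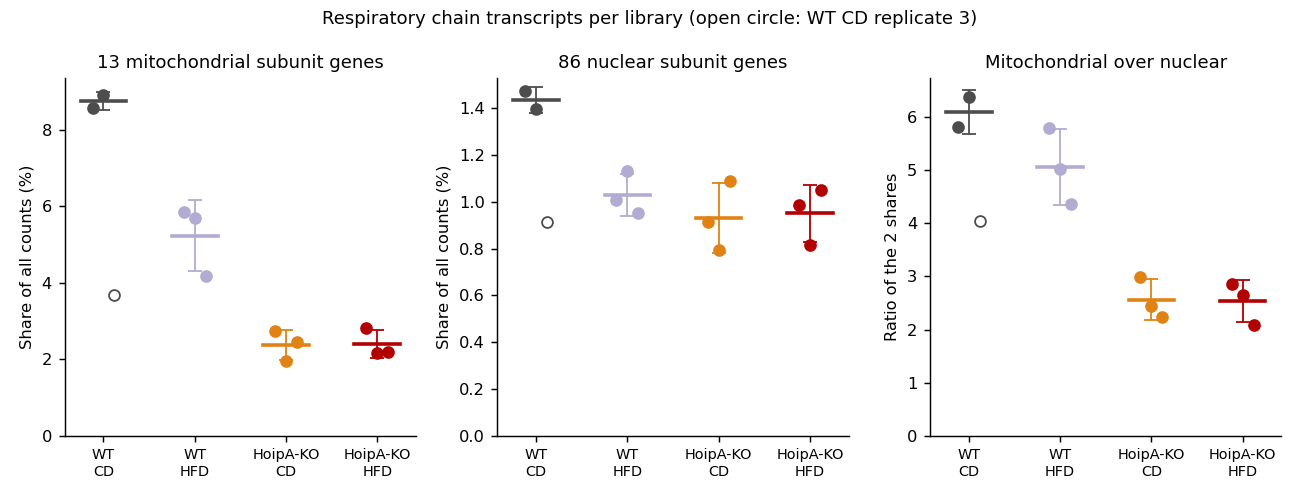
Share of all estimated counts (%) in the 13 mitochondrial subunit genes (left) and the 86 nuclear subunit genes (middle), and the ratio of these shares (right), by group. Points are libraries, bars the mean ± SD (n = 2 for WT CD, otherwise 3), and the open circle is WT CD replicate 3, which is not in the mean; the ratio was 4.04 to 6.39 in the WT libraries and 2.09 to 2.99 in the HoipA-KO libraries.

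The makeup of the tissue moved with these shares. The summed level of 10 adipocyte markers was 20981 to 48011 CPM in WT CD (13627 in replicate 3), 21509.7 to 29099 in WT on HFD, 6275 to 9102 in HoipA-KO on CD and 5539 to 7907 in HoipA-KO on HFD. No adipocyte marker was at 0 in every library of a group. Of the 10, 9 were lower in HoipA-KO on CD and 10 on HFD, beside 18.8% and 7.62% of all genes. The 9 macrophage markers summed to 348 to 449.7 CPM in WT CD, 1240.2 to 4082 in WT on HFD, 7318 to 9155 in HoipA-KO on CD and 4511 to 9042 in HoipA-KO on HFD. The 5 endothelial markers summed to 498 to 940.0 CPM in WT CD, 709.5 to 864 in WT on HFD, 290.1 to 406 in HoipA-KO on CD and 315 to 517 in HoipA-KO on HFD. In WT CD replicate 3 the endothelial sum was 306, within the HoipA-KO CD range. Of the 5 endothelial markers, 2 were lower on CD and 3 on HFD, beside 18.8% and 7.62% of all genes. WT CD replicate 3 held 253 CPM of macrophage markers. Of these 9 markers, 8 were higher in HoipA-KO on CD and 3 on HFD, beside 18.9% and 4.2% of all genes. The sums of adipocyte and macrophage markers separated HoipA-KO from WT libraries of the same diet, as the mitochondrial share did. On HFD the macrophage sums lay close, at up to 4082 in WT and from 4511 in HoipA-KO. The part of these markers in the values of the respiratory chain genes was not tested.

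On CD, all 13 mitochondrial subunit genes were lower in HoipA-KO than in WT GWAT, with log2 fold changes from -2.44 to -1.23 and a median of -1.96, so that the median gene was at 25.8% of its WT level. Among all 18427 genes tested, 37.7% passed the adjusted p of 0.05 in this comparison (18.8% lower, 18.9% higher), and the median log2 fold change of all genes was -0.06. By complex, the mitochondrial median was -2.21 for the 7 genes of complex I, -2.38 for mt-Cytb of complex III, -1.71 for the 3 genes of complex IV and -1.56 for the 2 genes of complex V.

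The gene mt-Nd4l, a small membrane subunit of complex I, was at 752 and 678 CPM in WT CD, 385, 330.2 and 267 in WT on HFD, 152, 116 and 127 in HoipA-KO on CD, and 150.0, 109 and 88.0 in HoipA-KO on HFD. Every HoipA-KO library lay under every WT library, including replicate 3 of WT CD at 195. The log2 fold change on CD was -2.44 (SE 0.25), the largest fall of the 13, with an adjusted p of 0.000452 in the quasi-likelihood test of edgeR, adjusted by Benjamini-Hochberg. Cytochrome b, the complex III core that oxidizes coenzyme Q and is encoded by mt-Cytb, was at 17491 and 14949 CPM in WT CD, and at 3416, 2512 and 3450.4 in HoipA-KO on CD. These groups did not overlap, also with 5138 CPM in WT CD replicate 3, and the log2 fold change was -2.38 (SE 0.29, edgeR adjusted p = 0.000533).

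The catalytic subunit of complex IV, mt-Co1, was the most abundant member. It reached 32216 and 31248 CPM in WT CD (12539 in replicate 3), 19737, 19549 and 14448 in WT on HFD, 10289, 8389.8 and 8587 in HoipA-KO on CD, and 9531, 8628 and 7626 in HoipA-KO on HFD. All 6 HoipA-KO libraries were under all 6 WT libraries, and the log2 fold change on CD was -1.80 (SE 0.25, edgeR adjusted p = 0.000807). The smallest fall was that of mt-Co3, another core subunit of complex IV, at -1.23 (SE 0.26, edgeR adjusted p = 0.00624).

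None of the 13 calls on CD was lost when each of the 11 libraries was left out in turn. Over all 12 libraries, 12 of the 13 stayed lower, the median was -1.62, and mt-Co3 had a log2 fold change of -0.93 with an edgeR adjusted p of 0.0658. In 11 libraries all HoipA-KO CD values lay under all WT CD values for 13 of 13 mitochondrial genes, and for 11 of 13 when replicate 3 was counted, where 25.6% and 17.9% of all genes tested did so.

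In the authors' counts, near-identical copies in the nuclear genome held counts beside some mitochondrial genes, so the level of these genes is uncertain. Reads were not examined here, and where the sequences are identical the origin of the counts cannot be told. A cluster of 7 annotated pseudogenes on chromosome 1, chr1:24611535-24616197 on the minus strand in GRCm38, matched mt-Co1, mt-Co2, mt-Co3, mt-Atp6, mt-Nd3, mt-Nd4l and mt-Nd4 at 99% identity or more. The copy Gm28661 is identical to mt-Co2 over its 681 bases, and it took 72.2% to 81.0% of the counts of the pair. The beginning of each is shown because they are the same base for base:
mt-Co2: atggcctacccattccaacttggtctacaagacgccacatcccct
Gm28661: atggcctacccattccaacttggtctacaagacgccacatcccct
The copy of mt-Nd3, Gm28438, differs from it at 1 of 345 bases, the substitution T3C counted from the first base of mt-Nd3, and took 76.2% to 85.6% of the counts of the pair. Their first 32 bases follow, with the differing base in capitals:
mt-Nd3: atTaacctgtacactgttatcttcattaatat
Gm28438: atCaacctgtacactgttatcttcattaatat
The share of the pair was 64.3% to 78.4% for the copy of mt-Atp6, 43.6% to 65.6% for mt-Co3, 39.5% to 58.5% for mt-Nd4l, 12.2% to 21.5% for mt-Co1 and 0.0188% to 0.128% for mt-Nd4.

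When each copy's counts were added to its mitochondrial gene, an alternative chosen after seeing the data, all 13 genes were again lower on CD. The log2 fold change then became -1.63 for mt-Co3 (edgeR adjusted p = 0.000939), -1.94 for mt-Nd3 and -1.73 for mt-Atp6. The spread among genes therefore depended in part on whether the counts of the copies were added, whereas the direction of each did not.

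**Figure D2:**
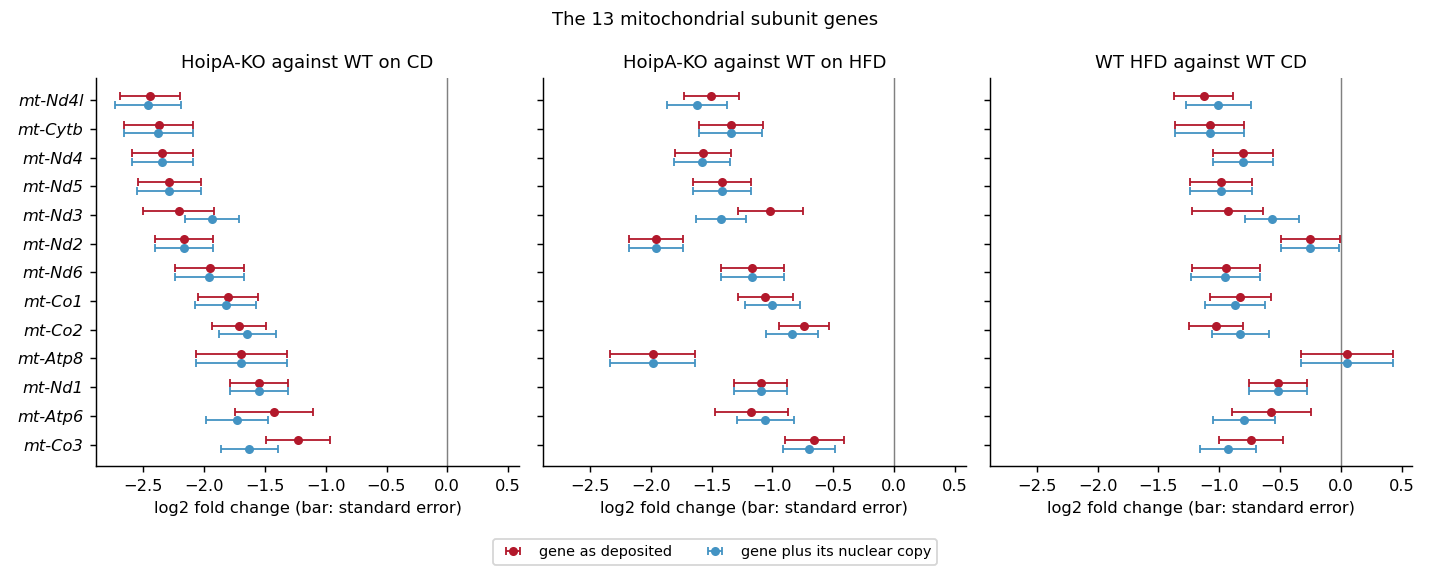
Log2 fold change (x axis, bars ± SE) of each of the 13 mitochondrial subunit genes (y axis) in 3 comparisons, with the gene as deposited (red) and with its nuclear copy added (blue); 6 genes have no copy at 99% identity and are plotted from the same counts. On CD all 13 lie between -2.44 and -1.23 as deposited, and mt-Co3, mt-Atp6 and mt-Nd3 are the genes that the copies move most.

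Nuclear subunits were also lower in HoipA-KO GWAT on CD, by less than the mitochondrial ones. Of 83 tested, 56 were lower and 1 higher at an adjusted p of 0.05, against 18.8% lower and 18.9% higher among all genes, and 80 of the 83 estimates were below 0. The median was -0.71, which is 61.0% of the WT level. Over all 12 libraries 20 nuclear subunits were called, against 34.6% of all genes, and the median was -0.48. In the 11 libraries, HoipA-KO CD lay wholly under WT CD for 69 of the 83, and for 14 of the 83 with WT CD replicate 3, beside 25.6% and 17.9% of all genes. It lay wholly above for 1, Cox6a2, in either case, beside 28.3% and 20.9%. The number of nuclear calls thus rested on which WT CD libraries were used.

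By complex, 31 of 37 nuclear subunits were lower for complex I (median -0.80), 1 of 4 for complex II (-0.36), 7 of 8 for complex III (-0.73), 9 of 17 for complex IV with 1 higher (-0.72), and 8 of 17 for complex V (-0.47). Within complex I, all 37 estimates lay between -1.30 and -0.16. The largest fall was that of Ndufb9, an accessory subunit of the membrane arm, at 228 and 207 CPM in WT CD, and 86.7, 79.2 and 99.5 in HoipA-KO on CD. The groups did not overlap, but WT CD replicate 3, at 95.4, lay within the HoipA-KO range. Its log2 fold change was -1.30 (SE 0.18, edgeR adjusted p = 0.000761), and -1.0 over all 12 libraries (adjusted p = 0.0232 in the same edgeR test). The 6 complex I genes that were not called were Ndufa8, Ndufa9, Ndufa11, Ndufa13, Ndufs7 and Ndufs8, with estimates of -0.49 to -0.16.

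Succinate dehydrogenase, complex II, also belongs to the citric acid cycle and has no mitochondrially encoded subunit. Its flavoprotein Sdha was at 549 and 366 CPM in WT CD (249 in replicate 3), 248, 237 and 222 in HoipA-KO on CD, and had a log2 fold change of -0.96 (SE 0.19, edgeR adjusted p = 0.00384). The HoipA-KO CD libraries were all under those of WT CD, the nearest being replicate 3. Its partners did not pass the test, with log2 fold changes of -0.26 (SE 0.23) for the iron-sulfur subunit Sdhb, -0.32 (SE 0.22) for the membrane anchor Sdhc and -0.40 (SE 0.16) for the anchor Sdhd. Sdhb was at 192 and 102 CPM in WT CD, and the HoipA-KO CD libraries, at 117, 118 and 132, lay between these 2.

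In complex III the exception was Uqcrc1, a core protein of the matrix side, with 254 and 159 CPM in WT CD and 165, 162 and 196 in HoipA-KO on CD (log2 fold change -0.25, SE 0.21, not called). Named for their roles after the values were seen, Uqcrfs1, the Rieske iron-sulfur protein, fell by 0.84 on the log2 scale (SE 0.16, edgeR adjusted p = 0.00402), and Uqcrc2, the other core protein, by 0.81 (SE 0.16, edgeR adjusted p = 0.00468). For complex IV, Cox4i1, the largest nuclear-encoded subunit, was at 605 and 805 CPM in WT CD (294 in replicate 3) and 359, 324 and 447 in HoipA-KO on CD. The difference was -0.90 (SE 0.21, edgeR adjusted p = 0.00815), although replicate 3 lay under all HoipA-KO CD libraries and the estimate over all 12 was -0.59 (adjusted p = 0.159). Cox6c, a small subunit of the same complex, fell by 1.22 (SE 0.20, edgeR adjusted p = 0.00166) and by 0.93 over all 12 libraries (adjusted p = 0.0343).

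Complex V had the fewest calls in proportion next to complex II. Atp5b, the catalytic beta subunit of ATP synthase, was at 1589 and 1041 CPM in WT CD (815 in replicate 3) and at 786, 796 and 817 in HoipA-KO on CD. The log2 fold change was -0.72 (SE 0.21, edgeR adjusted p = 0.0243). Without WT CD replicate 1 it was -0.39 and no longer called, and the call was also lost without HoipA-KO CD replicate 2 and over all 12 libraries (-0.52, adjusted p = 0.12). Atp5g1, one of the genes of the proton-carrying c ring, was at 55.6 and 73.5 CPM in WT CD and 71.0, 72.0 and 91.8 in HoipA-KO on CD, and its estimate of 0.28 (SE 0.17) did not pass the test. Of the 9 uncalled complex V genes, 7 had estimates below 0, and Atp5g2, a further c ring gene, was at 0.04.

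**Figure D3:**
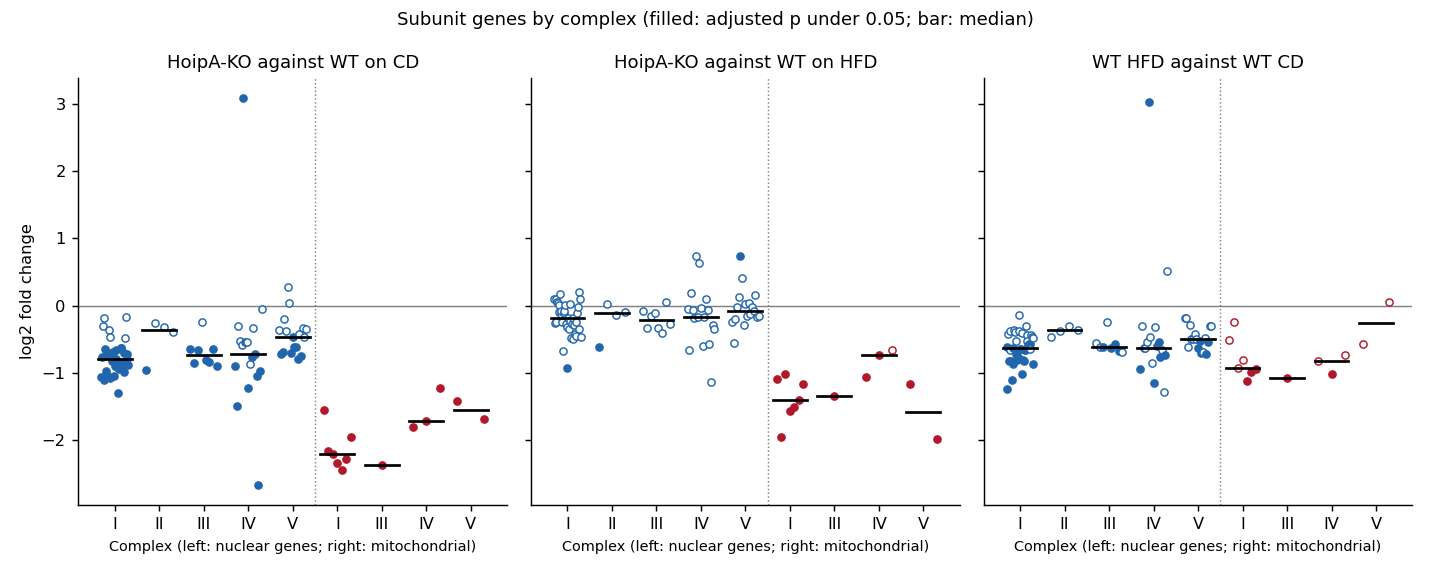
Log2 fold change (y axis) of the 96 tested subunit genes by complex (x axis), nuclear genes in blue to the left of the dotted line and mitochondrial genes in red to the right, for HoipA-KO against WT on CD, HoipA-KO against WT on HFD, and WT HFD against WT CD. Filled points passed an adjusted p of 0.05 in edgeR's quasi-likelihood test and black bars are medians; on CD the nuclear median is -0.71 and the mitochondrial -1.96, on HFD -0.16 and -1.17, and the highest point in the first and last panel is Cox6a2.

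Tissue isoforms of complex IV did not move as a group. Cox8b is the heart, muscle and brown fat isoform of subunit 8 and a widely used marker of brown and beige fat. It was at 10.8 and 18.2 CPM in WT CD (3.15 in replicate 3), 3.90, 7.65 and 6.30 in WT on HFD, 2.7, 0.532 and 3.58 in HoipA-KO on CD, and 2.71, 1.73 and 3.63 in HoipA-KO on HFD. The HoipA-KO CD libraries lay under the WT CD libraries but overlapped with replicate 3. On CD it had the largest fall of all subunits, -2.68 (SE 0.65, edgeR adjusted p = 0.0112), and it was -2.24 (adjusted p = 0.0397) over all 12 libraries. Its ubiquitous partner Cox8a was at 517 and 372 CPM in WT CD (171 in replicate 3) and 195, 160.3 and 289.9 in HoipA-KO on CD, a log2 fold change of -1.05 (SE 0.25, edgeR adjusted p = 0.0105). It was not called over all 12 libraries (-0.72, adjusted p = 0.132) or without WT CD replicate 1 (-0.80). The log2 ratio of Cox8b to Cox8a, with 0.1 CPM added to each, was -4.96 ± 0.86 (SD, n = 2) in WT CD, -5.58 ± 0.45 in WT on HFD, -6.80 ± 1.03 in HoipA-KO on CD and -6.13 ± 0.38 in HoipA-KO on HFD (n = 3 each). The 5 brown or beige fat markers, which do not include Cox8b, summed to 14.2 to 39.4 CPM in WT CD, 8.89 to 13.5 in WT on HFD, 7.81 to 15.4 in HoipA-KO on CD and 5.19 to 5.78 in HoipA-KO on HFD. The highest WT CD sum was that of replicate 2, and replicate 3 had 12.7, within the HoipA-KO CD range. Of the 5, Cidea (-4.95), Ppargc1a (-1.76) and Ucp1 (-5.65) were lower on CD, beside 18.8% of all genes. Ucp1 was high in WT CD replicate 2 alone, as given below. The fourth called marker, Dio2, was higher (2.71), at 0.925 and 1.48 CPM in WT CD and 5.45, 13.5 and 4.74 in HoipA-KO on CD. On HFD only Cidea was called, at -2.79. Their part in the difference was not tested.

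The promoters of these paralogs are shown because the isoforms are used in different tissues. The windows run from 250 bases before to 50 bases after the start in RefSeq, build GRCm38.p6. They lie at chr19:7217567-7217866 on the minus strand for Cox8a and chr7:140900397-140900696 on the minus strand for Cox8b, with any motif match in capitals:
Cox8a: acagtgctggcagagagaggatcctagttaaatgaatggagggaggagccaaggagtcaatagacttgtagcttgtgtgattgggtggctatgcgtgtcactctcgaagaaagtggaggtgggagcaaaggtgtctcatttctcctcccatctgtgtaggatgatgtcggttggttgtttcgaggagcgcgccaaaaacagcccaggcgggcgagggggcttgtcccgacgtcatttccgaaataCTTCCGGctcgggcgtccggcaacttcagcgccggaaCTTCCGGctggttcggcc
Cox8b: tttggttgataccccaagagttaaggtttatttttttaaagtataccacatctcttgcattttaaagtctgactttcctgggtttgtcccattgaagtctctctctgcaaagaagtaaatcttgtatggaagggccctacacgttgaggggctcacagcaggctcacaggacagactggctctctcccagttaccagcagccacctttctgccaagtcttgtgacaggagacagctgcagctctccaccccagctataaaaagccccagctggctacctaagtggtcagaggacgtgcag
Of 86 nuclear subunits, 69 were in the promoter table. Both strands were searched for the letters of 4 factors, NRF1 (GCGCA and GCGC with 1 base of any kind between them), GABP (CCGGAAG), YY1 (AAGATGG) and ERR (TNAAGGTCA). Cox8a held 2 GABP matches, read as CTTCCGG on the strand shown, 19 CpG and 56.0% GC, whereas Cox8b held no match, 2 CpG and 48.3% GC. Of the 69 subunit genes, 24.6% held the NRF1 letters in a promoter, 24.6% GABP, 15.9% YY1 and 4.35% ERR. Of all 27025 genes, 5.19%, 9.93%, 7.28% and 1.43% did so. A gene counted if any of its promoter entries matched. Cox6a1 held 2 NRF1 matches and 1 GABP match, and neither Cox7a1 nor Cox7a2 held any of the 4. The median GC content was 58.3% for subunit genes and 52.75% for all genes, each gene taken as the mean of its promoter entries.

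Cox7a1, the isoform of subunit 7a of the same tissues, was at 4.46 and 5.25 CPM in WT CD (1.51 in replicate 3), 4.03, 4.30 and 3.34 in WT on HFD, 2.46, 1.82 and 3.7 in HoipA-KO on CD, and 2.90, 2.11 and 2.68 in HoipA-KO on HFD. Its log2 fold change of -0.87 on CD (SE 0.32, edgeR adjusted p = 0.0545) did not pass the test, and was -0.50 (adjusted p = 0.402) over all 12 libraries. The partner Cox7a2 fell by 0.77 (SE 0.17, edgeR adjusted p = 0.00644). The log2 ratio of Cox7a1 to Cox7a2 was -5.13 ± 0.29 in WT CD, -4.84 ± 0.10 in WT on HFD, -5.25 ± 0.30 in HoipA-KO on CD and -5.26 ± 0.21 in HoipA-KO on HFD.

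The Cox4i2 isoform, known from lung and induced by low oxygen, was at 4.22 and 3.61 CPM in WT CD (1.51 in replicate 3), 3.83, 2.31 and 3.40 in WT on HFD, 1.53, 0.770 and 1.86 in HoipA-KO on CD, and 2.21, 1.26 and 2.57 in HoipA-KO on HFD. On CD the log2 fold change was -1.50 (SE 0.43, edgeR adjusted p = 0.0218), but the call was lost over all 12 libraries at -1.17 (adjusted p = 0.0831), and without WT CD replicate 1 or HoipA-KO CD replicate 2. The 7 pericyte markers, cells in which Cox4i2 is also known, summed to 368 to 544 CPM in WT CD, 503 to 602 in WT on HFD, 259 to 361 in HoipA-KO on CD and 349 to 417 in HoipA-KO on HFD. In WT CD replicate 3 the pericyte sum was 242, under all HoipA-KO CD libraries. The part of these markers, again, was not tested. Relative to Cox4i1, the log2 ratio of Cox4i2 was -7.45 ± 0.45 in WT CD, -6.82 ± 0.52 in WT on HFD, -8.05 ± 0.42 in HoipA-KO on CD and -7.44 ± 0.45 in HoipA-KO on HFD.

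Cox6a2, the heart and muscle isoform of subunit 6a, went the other way. It was at 0.0712 and 0.148 CPM in WT CD (0.0364 in replicate 3), 0.655, 0.996 and 1.09 in WT on HFD, 0.971, 0.660 and 1.25 in HoipA-KO on CD, and 1.70, 0.964 and 1.91 in HoipA-KO on HFD. Every library of the other 3 groups was above every WT CD library, which held 3, 7 and 2 counts, at or near the floor. Cox6a2 reached the mean of 0.5 CPM for members only through these 3 groups. Its rise over WT CD is therefore tied to the choice of members, and the values below describe it without being independent support. HoipA-KO CD was 8.52-fold above WT CD by the summed counts, 147 against 10, with an exact 95% counting interval of 4.51 to 18.1 that covers counting error only. The log2 fold change was 3.10 (SE 0.55, edgeR adjusted p = 0.00247), and 3.47 (adjusted p = 0.0014) over all 12 libraries. Summed levels of 8 muscle markers were 12 to 63.6 CPM in WT CD, 11.5 to 26.6 in WT on HFD, 3.06 to 6.07 in HoipA-KO on CD and 2.87 to 142 in HoipA-KO on HFD. In this sum the HoipA-KO CD libraries lay under the WT CD libraries, while their Cox6a2 was higher. Of the 4 muscle markers that could be tested, 1 was lower on CD, beside 18.8% of all genes. The log2 fold changes of the 4 ran from -3.39 to 1.44, with a median of -0.0024. Their part in the rise of Cox6a2 was not tested. The partner Cox6a1, at 315 and 265 CPM in WT CD and 174, 153 and 249 in HoipA-KO on CD, had a log2 fold change of -0.59 (SE 0.21, edgeR adjusted p = 0.0517). The log2 ratio of Cox6a2 to Cox6a1 was -10.45 ± 0.55 in WT CD and -7.51 ± 0.16 in HoipA-KO on CD. Per kb, Cox6a2 in WT CD was the lowest nuclear subunit at 0.161 CPM per kb, beside 413 for Cox6a1.

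Ndufa4, now counted to complex IV, fell by 0.97 on CD (SE 0.15, edgeR adjusted p = 0.00121), and was at -0.62 (adjusted p = 0.169) over all 12 libraries. Its paralog Ndufa4l2, known as a target of the hypoxia response, was at 10.7 and 5.21 CPM in WT CD (17.3 in replicate 3) and 9.06, 5.17 and 8.80 in HoipA-KO on CD. The estimate was -0.06 (SE 0.32), and its sign depended on the WT CD library used. Cox6b2, a testis isoform, was at 1.57 and 2.34 CPM in WT CD and at 84.9 in replicate 3. Its log2 fold change was -0.55 (SE 0.42, not called) in 11 libraries and -4.47 (edgeR adjusted p = 0.0253) in 12. The partner Cox6b1 had -0.54 (SE 0.17, edgeR adjusted p = 0.0344), or -0.19 (adjusted p = 0.662) over all 12 libraries.

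**Figure D4:**
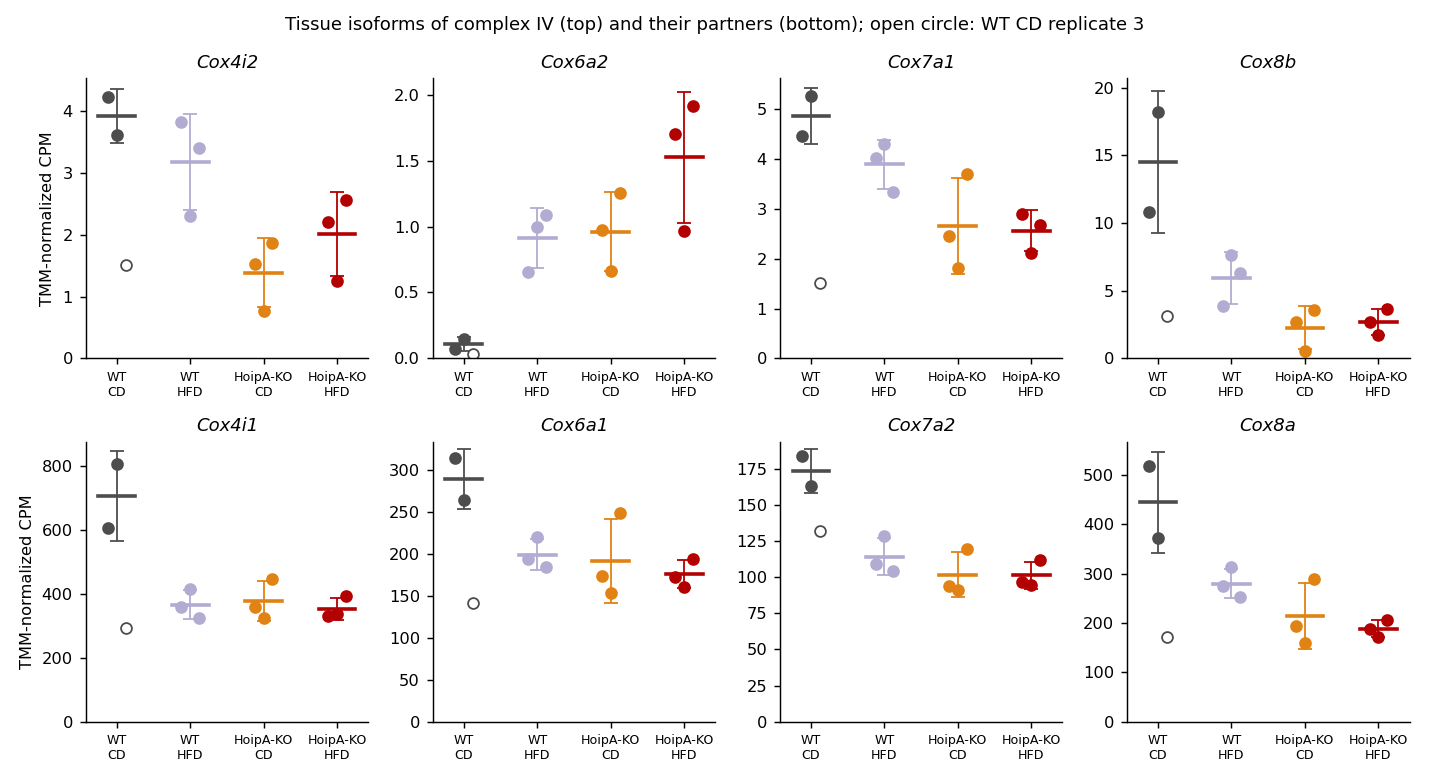
TMM-normalized CPM (y axis, linear from 0, own scale in each panel) of 4 tissue isoforms of complex IV (top row) and their partners (bottom row) by group. Points are libraries, bars the mean ± SD (n = 2 for WT CD, otherwise 3), and the open circle is WT CD replicate 3, not in the mean; Cox8b is at 10.8 and 18.2 in WT CD and at most 3.63 in HoipA-KO libraries, and Cox6a2 is at most 0.148 in WT CD and at least 0.655 elsewhere.

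On HFD the difference between genotypes was found mainly in the mitochondrial genes. Of 13, 12 were lower in HoipA-KO, with a median of -1.17 (44.4% of the WT level), and of 83 nuclear subunits 2 were lower and 1 higher, with a median of -0.16 (89.7%). Among all genes, 7.62% were lower and 4.2% higher, with a median of 0.06, but scaling by library size alone made 1274 of 2405 called genes higher, against 774 of 2179 with TMM. The absolute log2 fold change on HFD was smaller than that on CD for 78 of 83 nuclear and 12 of 13 mitochondrial subunits. Of the nuclear subunits lower on CD, 2 were also lower on HFD, and of the mitochondrial ones 12. These counts were not taken over all genes, of which 37.7% were called on CD and 11.8% on HFD.

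The largest falls were those of mt-Atp8, a membrane subunit of ATP synthase, at -1.98 (SE 0.35, edgeR adjusted p = 0.0137), of mt-Nd2 at -1.96 (SE 0.22, adjusted p = 0.00739) and of mt-Nd4 at -1.57 (SE 0.23, adjusted p = 0.00871). Both mt-Nd2 and mt-Nd4 encode proton-pumping subunits of complex I. For mt-Nd2 the levels were 5118, 5195 and 3827 CPM in WT on HFD, and 1496, 1132 and 1016 in HoipA-KO on HFD, so that the highest HoipA-KO library was under the lowest WT library. The levels of mt-Atp8 were 471, 1025 and 784 in WT on HFD and 203, 230.3 and 143 in HoipA-KO on HFD, again apart. The gene that was not called, mt-Co3, had a log2 fold change of -0.66 (SE 0.24, edgeR adjusted p = 0.0986), and -0.70 (adjusted p = 0.059) with its nuclear copy.

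In 12 of 13 mitochondrial genes and 22 of 83 nuclear subunits all HoipA-KO HFD libraries lay under all WT HFD libraries, and in 4 nuclear subunits above, where 22.7% and 20.7% of all genes did so. With WT CD replicate 3 in the fit, which adds to the spread shared by the groups, the calls dropped to mt-Nd2 and mt-Atp8, beside 2.89% of all genes (2.3% lower, 0.598% higher), although the estimates of these 2 stayed at -1.96 and -1.98. Leaving out single libraries left 4 to 18 subunits called, and mt-Nd2, mt-Nd4 and mt-Nd4l were called without any 1 of the 11.

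The 2 nuclear subunits that were lower on HFD were Ndufb3, an accessory subunit of the membrane arm of complex I, and Sdha. Ndufb3 was at 108, 126 and 91.0 CPM in WT on HFD and 60.5, 47.1 and 62.9 in HoipA-KO on HFD (log2 fold change -0.93, SE 0.20, edgeR adjusted p = 0.0228). Sdha was at 315, 369.6 and 304 in WT on HFD and 214, 220.3 and 211 in HoipA-KO on HFD (-0.61, SE 0.17, edgeR adjusted p = 0.0452). Atp5g1 was the one that was higher, at 41.2, 48.6 and 47.1 in WT on HFD and 71.6, 72.8 and 83.0 in HoipA-KO on HFD (0.73, SE 0.15, edgeR adjusted p = 0.0219). The groups did not overlap for any of these, but over all 12 libraries none was called, with edgeR adjusted p of 0.134, 0.182 and 0.0642. Leaving out 1 of the 11 libraries removed the call in 3 cases for Ndufb3, 7 for Sdha and 4 for Atp5g1. None of the tissue isoforms passed the test on HFD, with log2 fold changes of -1.14 (SE 0.59) for Cox8b, -0.66 (SE 0.39) for Cox4i2, -0.60 (SE 0.29) for Cox7a1 and 0.73 (SE 0.41) for Cox6a2.

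In WT mice, part of the nuclear and part of the mitochondrial subunits were lower on HFD than on CD. This comparison and that of HoipA-KO with WT on CD share the WT CD libraries, so their values stand side by side and are no independent evidence of each other. On HFD 36 of 83 nuclear subunits were lower than on CD and 1 higher (median -0.57), and 5 of 13 mitochondrial genes were lower (median -0.83), against 5.47% lower and 9.35% higher (14.8% in all) among all genes with a median of 0.00. Scaling by library size alone made 2119 of 2785 called genes higher, against 1723 of 2731 with TMM. By complex, 20 of 37 nuclear subunits were lower for complex I, 0 of 4 for complex II, 4 of 8 for complex III, 7 of 17 for complex IV with Cox6a2 higher, and 5 of 17 for complex V. All WT HFD libraries lay under all WT CD libraries for 62 nuclear and 12 mitochondrial genes (18% of all genes), but for 10 and 0 with replicate 3 (9.96%). Alone, each of WT HFD replicates 1, 2 and 3 brought the calls from 42 to 23 when it was left out, and WT CD replicate 2 to 27. Of the subunits lower in WT on HFD, 33 nuclear and 5 mitochondrial ones were also lower in HoipA-KO on CD. How many of all genes were lower in both comparisons was not counted.

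Among the called genes, the largest falls with diet in WT were those of Ndufa1, Cox6c and mt-Nd4l. The fall was -1.23 for Ndufa1, an accessory subunit needed for complex I assembly (SE 0.24, edgeR adjusted p = 0.0109). Cox6c was at -1.16 (SE 0.20, adjusted p = 0.00801) and mt-Nd4l at -1.13 (SE 0.24, adjusted p = 0.0173). Ndufa1 was at 77.5 and 134 CPM in WT CD and at 42.1, 51.6 and 41.4 in WT on HFD, with replicate 3 of WT CD lower still at 32.5. Cox6c was at 279 and 379 CPM in WT CD (146 in replicate 3) and 153, 164 and 126 in WT on HFD. Over all 12 libraries neither was called (edgeR adjusted p = 0.15 and 0.0703), whereas Ndufa5, an accessory subunit of the matrix arm, was (-1.11 in 11 and -0.92 in 12 libraries, edgeR adjusted p = 0.00617 and 0.0167). The mitochondrial calls were mt-Nd4l, mt-Nd5, mt-Nd6, mt-Cytb (-1.08) and mt-Co2 (-1.02), while mt-Nd2 was at -0.25 (SE 0.24) and mt-Atp8 at 0.05 (SE 0.38). With the nuclear copies added, the same genes stayed called, mt-Co2 at -0.83. Then mt-Co1 (-0.87, edgeR adjusted p = 0.0451) and mt-Co3 (-0.93, adjusted p = 0.0291) were called as well. Over all 12 libraries 8 subunits were called, beside 15.2% of all genes (6.02% lower, 9.17% higher), and no mitochondrial gene was among them. Cox6a2 rose by 3.03 (SE 0.55, edgeR adjusted p = 0.00917), 8.53-fold by counts (126 against 10, interval 4.49 to 18.2). It was a member only through the groups other than WT CD, so this rise is tied to the choice of members. In this comparison over 11 libraries 1 of 10 adipocyte markers was lower, beside 5.47% of all genes, and 8 of 9 macrophage markers were higher, beside 9.35%. All 6 male germ cell markers were lower, with a median of -6.74, beside the same 5.47% of all genes. The part of these in the values of the subunits was not tested.

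Between the diets no subunit was called in HoipA-KO mice. Neither of 83 nuclear nor of 13 mitochondrial subunits had an unadjusted p under 0.05 in edgeR, DESeq2 called 0 as well, and 0 of all 18427 genes (0%) passed the adjusted threshold in edgeR. All HoipA-KO HFD libraries were under all HoipA-KO CD libraries for 5 nuclear subunits and above for 1, beside 2.48% and 3.39% of all genes. The medians were -0.07 for the nuclear and -0.08 for the mitochondrial genes, with single estimates from -0.32 for mt-Atp6 to 0.67 for Cox6a2. The mitochondrial shares of 2.37% ± 0.401 on CD and 2.39% ± 0.376 on HFD (SD, n = 3) differed by less than the spread between libraries. Cox6a2, Cox4i2 and Cox8b were higher on HFD in 3 of 3 pairs of libraries with the same number. This comparison was made after their values were seen. For Cox8b, replicates 1 and 3 were nearly equal between the diets, and only replicate 2 was clearly higher on HFD. The pairing was itself taken from correlations in these data. How many of all genes were higher in 3 of 3 pairs was not counted. With the 2 HoipA-KO groups fitted alone and the replicate number as a block, Cox6a2, Cox4i2 and Cox8b were at 0.67 (SE 0.25), 0.58 (SE 0.23) and 0.54 (SE 0.41). Their adjusted p in this edgeR fit were 0.634, 0.658 and 0.783, and 0 of the 96 subunits were called.

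Whether the genotype difference depended on diet was tested by the interaction, coded as the difference on HFD minus that on CD, so that a positive value means a less negative difference on HFD. The estimate was positive for 93 of the 96 subunits, with a median of 0.50 against -0.01 for all genes, but 4 passed the threshold, where 0.331% of all genes did so in this direction and 3.58% in the other, 3.91% in all. These were Cox6c (1.18, SE 0.27, edgeR adjusted p = 0.0448) and 3 complex I subunits. The latter were Ndufa5 (1.05, SE 0.21, adjusted p = 0.0301), Ndufa6 of the matrix arm (0.91, SE 0.19, adjusted p = 0.0367) and Ndufv2, an iron-sulfur protein of the NADH module (0.90, SE 0.17, adjusted p = 0.0281). Ndufv2 was at 166 and 148 CPM in WT CD (138 in replicate 3), 85.6, 92.9 and 78.0 in WT on HFD, 87.7, 88.0 and 94.7 in HoipA-KO on CD, and 90.1, 90.4 and 95.0 in HoipA-KO on HFD. WT CD was thus above the other 3 groups, which overlapped with each other. Over all 12 libraries 1 of the 4, Ndufv2, remained (0.85, edgeR adjusted p = 0.0384), beside 0.0719% of all genes, and leaving out single libraries left 0 to 9 subunits called. No mitochondrial gene passed the interaction test, and the median over subunits combines genes that share the same libraries.

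Assembly factors help to build the complexes, and 13 were members, with Cox7a2l, which acts in the joining of complexes, counted among them. On CD, 4 of the 13 were lower, beside 18.8% of all genes (median -0.43, and -0.71 for the nuclear subunits), namely Ndufaf1 (-0.75), Ndufaf3 (-0.65) and Ndufaf4 (-0.65) of complex I and Sdhaf4 (-0.43) of complex II. Sdhaf3 was lower on HFD (-0.80), where 7.62% of all genes were, and Ndufaf3 in WT HFD against WT CD (-0.64), beside 5.47%. In the 11 libraries these log2 fold changes were under 1 in size. Ndufaf3 was at 22.3 and 20.0 CPM in WT CD but at 115 in replicate 3. It was at -1.96 on CD over all 12 libraries (edgeR adjusted p = 0.0238) and -1.95 with diet in WT (adjusted p = 0.044). The other calls were lost over the 12, with -0.60 for Ndufaf1 (edgeR adjusted p = 0.0686), -0.36 for Ndufaf4 (adjusted p = 0.367), -0.37 for Sdhaf4 (adjusted p = 0.113) and -0.79 for Sdhaf3 (adjusted p = 0.0874).

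Other genes of the pathway were read from lists chosen with results of these data known. Beside their counts, 18.8% of all genes were lower and 18.9% higher on CD, and 7.62% were lower on HFD. On CD, 5 of 7 electron carriers and dehydrogenases were lower, among them cytochrome c, Cycs (-1.09), cytochrome c1 of complex III, Cyc1 (-0.73), and the glycerol-3-phosphate dehydrogenase Gpd2 (-1.77). Of 12 coenzyme Q genes, 7 were lower, with Coq9 (-1.12) first. Of other assembly factors 6 of 7 were lower for complex I, 3 of 6 for complex III (Lyrm7 -1.36), 8 of 18 for complex IV with 1 higher (Cox18 -1.32, Sco2 0.73), and 2 of 3 for ATP synthase. The counts on HFD were 3 of 7 carriers, 3 of 12 coenzyme Q genes, 3 of 7 and 2 of 6 assembly factors of complexes I and III, 1 of 18 of complex IV and 1 of 3 of ATP synthase, all lower.

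Of 18 genes that maintain or express the mitochondrial genome, 4 were lower on CD, where 18.8% of all genes were, with a median log2 fold change of -0.32 beside -1.96 for the mitochondrial subunits. On HFD edgeR called none of the 18 (7.62% of all genes were lower), with a median of -0.17 beside -1.17. The transcription and packaging factor Tfam was at -0.32 (SE 0.11, edgeR adjusted p = 0.0433), the transcription factor Tfb2m at -0.74 (SE 0.22, adjusted p = 0.0256), and the mitochondrial RNA polymerase Polrmt at 0.22, not called. Of 9 nuclear regulators of mitochondrial genes, Ppargc1a, the coactivator PGC-1alpha, was lower on CD at -1.76 (SE 0.31, edgeR adjusted p = 0.0023). It had 7.24 and 4.43 CPM in WT CD (5.11 in replicate 3) and 2.06, 1.39 and 1.72 in HoipA-KO on CD. These libraries did not overlap. Perm1 was lower too (-2.62), at levels of 0.261 and 0.95 CPM in WT CD, while Nrf1 (0.53) and Pprc1 (0.72) were higher, and none of the 9 was called on HFD. Of 3 uncoupling genes, Ucp2 was higher on CD (3.14) and Ucp3 lower on both diets (-2.03 and -2.20). Ucp1, the uncoupler of brown fat, was also called lower on CD, but its level was 12.8 CPM in WT CD replicate 2 and at most 0.489 in each of the other 11 libraries.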

How the data were processed

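RNA of gonadal white adipose tissue was sequenced after poly-A selection and stranded library preparation. Per the labels and the study's methods, the authors used the nf-core RNA-seq workflow with Trim Galore 0.6.7, STAR 2.7.10a and Salmon 1.5.2, and deposited estimated counts per gene for 12 libraries. The processing notes name the mouse build GRCm38. The authors' DESeq2 tables of log2 fold changes, p-values and CPM were not used.

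The estimated counts of all genes were rounded and fitted with edgeR 4.0.16 in R 4.3.3. TMM scaling, filterByExpr and the quasi-likelihood test (glmQLFit, glmQLFTest) were run on 11 libraries of the 4 groups in one fit, without WT CD replicate 3, and p-values were adjusted by Benjamini-Hochberg over the 18427 genes that passed the filter. A call means an adjusted p under 0.05. Levels are TMM-normalized CPM, where a value in one library is limited by the totals of 30513500 to 60540260 counts, and the floor is 3 counts. Rows without a symbol held 0.0150% of the counts. The biological coefficient of variation was 0.394 over 11 and 0.514 over 12 libraries. Intervals and floors cover counting error only, and the spread between libraries is that between pools of 3 mice.

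Members were sorted into subunits, assembly factors and other loci by symbol. Named were the mitochondrial genes, the isoform pairs, the most abundant nuclear subunit of each complex, the 4 of complex II, the 3 largest changes in each direction in each comparison, and genes whose values stand beside these. Other genes were named after their values were seen. One gene that this rule names is not reported here. Members and lists, including the marker lists of adipocytes, brown or beige adipocytes, macrophages, endothelium, pericytes, muscle, epididymis and male germ cells, were chosen with earlier results of these data known. Isoform ratios used a pseudocount of 0.1 CPM. Nuclear copies were found by aligning mitochondrial transcripts to the GENCODE M21 transcripts, of which 51948 of 55281 gene IDs matched, with at least 99% identity over at least 250 bases. The fit was tested on simulated data. Between HoipA-KO on CD and on HFD, the deviations of same-numbered libraries from their group means correlated at 0.150, 0.509 and 0.276, so the numbers were taken to pair these libraries. The labels name no shared batch.

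Alternatives were all 12 libraries, other scalings (DESeq2 size factors, library size, mitochondrial genes outside the totals), other filters, the protein-coding table, a replicate block, only the 2 groups compared, DESeq2 1.42.0, an adjusted p of 0.01, leaving out each library, other pairs of WT CD libraries, another pseudocount and, added after seeing the data, nuclear copies merged and a block over the HoipA-KO groups alone.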

Additional observations from a re-analysis of the deposited data

Results flagged for a closer look

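For 4 subunits the test of the difference between the diets in the genotype effect passed the threshold (quasi-likelihood test of edgeR, adjusted by Benjamini-Hochberg). The interaction was 1.18 for Cox6c (SE 0.27, adjusted p = 0.0448), 1.05 for Ndufa5 (SE 0.21, adjusted p = 0.0301), 0.91 for Ndufa6 (SE 0.19, adjusted p = 0.0367) and 0.90 for Ndufv2 (SE 0.17, adjusted p = 0.0281). WT CD was the high group for each in the fit without WT CD replicate 3. For Cox6c that replicate lay under part of the WT HFD libraries, as given above. Leaving out 1 of the 11 libraries removed the call in 10 cases for Cox6c, 9 for Ndufa6 and 7 for Ndufa5. Without WT CD replicate 2, WT HFD replicate 2 or any 1 HoipA-KO CD library, no subunit was called, Ndufv2 included. The same held without HoipA-KO HFD replicate 1 or 3. Only Ndufv2 was called over all 12 libraries (0.85, edgeR adjusted p = 0.0384), and with the replicate block 0 of the 4.

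WT CD replicate 3, which was left out of the fits over 11 libraries, held transcripts of subunit genes known from testis. Cox8c was at 113 CPM there (6226 counts) and at most 0.443 CPM in the other 11 libraries, Cox7b2 at 62.4 CPM (at most 0.148), Ndufb11b at 60.3 CPM (at most 0.338) and Cox6b2 at 84.9 CPM (0.556 to 2.34). The same library held 8063 CPM of the male germ cell markers. With 0.5 CPM as the minimum mean, Cox8c, Cox7b2 and Ndufb11b were members through this library.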

How the results depend on the processing

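The number of called subunits rested on the WT CD libraries. Against 70 for HoipA-KO and WT on CD, 32 were called with all 12 libraries, 22 with WT CD replicates 2 and 3, and 26 with 1 and 3. For HFD the 15 became 2, 5 and 3 under these choices, and 3 at an adjusted p of 0.01. For WT HFD against WT CD the 42 became 8, 10 and 5, 5 at an adjusted p of 0.01, 69 with DESeq2 and 0 when only the 2 groups were fitted (edgeR). The interaction, which 2 groups cannot give, went from 4 to 1, 2 and 0, to 2 with library size only, 2 without a filter, 7 with at least 10 counts in every library, 37 with DESeq2 and 0 at an adjusted p of 0.01. The nuclear median on CD was -0.48, -0.27 and -0.46 and the mitochondrial -1.62, -1.28 and -1.63 with all 12 libraries and the other pairs, and with diet in WT -0.36, -0.080 and -0.29, and -0.50, -0.17 and -0.34. The cause was not tested.

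Leaving out single libraries gave 50 to 86 calls on CD, 4 to 18 on HFD, 23 to 63 for diet in WT, 0 for diet in HoipA-KO and 0 to 9 for the interaction. On HFD, WT HFD replicates 1 and 2 each left 4, and HoipA-KO HFD replicates 2 and 3 left 5 and 6. The interaction had 0 calls without WT CD replicate 2, WT HFD replicate 2, any HoipA-KO CD library, or HoipA-KO HFD replicates 1 or 3, 2 without WT HFD replicate 3 and 9 without WT CD replicate 1. Medians ranged from -0.91 (without HoipA-KO CD replicate 3) to -0.55 (without WT CD replicate 1) for nuclear and -2.21 to -1.79 for mitochondrial subunits on CD, -0.20 to -0.076 and -1.36 to -1.04 on HFD, -0.68 to -0.41 and -0.92 to -0.69 for diet in WT, and -0.12 to 0.085 and -0.18 to 0.03 for diet in HoipA-KO.

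Apart from HoipA-KO on CD and HFD, where the 3 same-numbered pairs all correlated over 0.1, the replicate numbers did not pair the libraries. In all 6 of 15 pairs correlated over 0.1 (range -0.375 to 0.509), and 5 of 11 libraries correlated best with their own number. With the replicate block, 66, 13, 29, 0 and 0 subunits were called for the genotype on CD, on HFD, diet in WT, diet in HoipA-KO and the interaction. Fitting the HoipA-KO groups alone with the block, chosen after seeing the data, gave 0 calls as well.

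With nuclear copies merged, chosen after seeing the data, the mitochondrial share differed by -8.71 percentage points on CD and -3.59 on HFD, in place of -6.37 and -2.84. A pseudocount of 0.5 CPM brought the difference of Cox6a2 over Cox6a1 on CD from 2.95 to 1.86. The median of all genes, -0.06 on CD and 0.06 on HFD as reported, moved in some settings. On CD it became -0.16 with mitochondrial genes outside the totals and -0.17 with all 12 libraries. With library size only it was 0.15 on HFD, and 0.09 in place of -0.01 for diet in HoipA-KO.

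The sign turned for single genes that did not pass the test, and for Cox6b1 on CD and Cox7b with diet in WT, which did. With WT CD replicates 2 and 3, Cox6b1 (0.068) and Cox7b (0.32) on CD and mt-Nd1 (0.13), mt-Nd2 (0.25), Cox4i2 (0.33), Cox7a1 (0.22) and Cox7b (0.12) for diet in WT turned, with replicates 1 and 3 Cox7b (0.17) on CD and mt-Nd2 (0.32), Cox4i2 (0.14) and Cox7a1 (0.38) for diet, and with all 12 libraries Cox7b (0.037) on CD and mt-Nd2 (0.078), Cox4i2 (0.027) and Cox7a1 (0.053) for diet. Library size only gave 0.029 for Ndufa4l2 on CD and 0.041 for Cox4i1 on HFD. For mt-Atp8 with diet in WT, mitochondrial genes outside the totals gave -0.0030, no filter -0.018, the protein-coding table -0.030 and only 2 groups -0.028. Leaving out single libraries gave -0.48 to 0.55 for Ndufa4l2 on CD, -0.13 to 0.045 for Cox4i1 on HFD and -0.25 to 0.46 for mt-Atp8 with diet in WT. Of the other values of single genes, 1761 kept direction and side of the threshold, 298 no longer passed it and 54 newly passed it.

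Each group has 2 or 3 libraries from pooled mice, so differences between mice are not seen. Levels under 0.0983 CPM are at or below the floor in the shallowest library. Protein and mitochondrial DNA were not analysed here, and the makeup of the tissue differed between the groups.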
